A study of Mus musculus with 4 samples.

Results

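The longest gene windows in the genome, those of 400 kb or more, were described for the histone mark H3K27me3 in mouse alveolar macrophages, which live in the airspaces of the lung and clear debris and surfactant. A window is a gene with 3 kb on each side, as read from the deposited lengths. All rows of the deposited count table with a length of at least 400000 bp were taken, which gave 315 of 27095 windows. They are 1.16% of the windows and 18.01% of the summed window length. Of these, 308 belong to protein-coding genes and 5 to long non-coding RNAs, and 2 carry IDs that were not matched to the reference. Their lengths run from 400362 to 2262181 bp with a median of 550105 bp, and 47 are 1 Mb or longer. They lie on 20 chromosomes, 30 of them on chromosome 1 and 13 on X, and none on Y.

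The 4 libraries came from bone marrow chimeras on a C57BL/6 background. All recipients were lethally irradiated C57BL/6-Ly5.1 mice that received 10% wild-type Ly5.1 marrow. The other 90% was Ly5.2 marrow, wild type in the 2 wild-type libraries and Suz12 conditional knockout (cKO) in the 2 cKO libraries, so both groups also carried wild-type competitor marrow. Each library was made by Cut&Tag, in which a transposase tethered to the antibody cuts and tags nearby chromatin, from 100000 sorted alveolar macrophages with 0.5 µg of anti-H3K27me3 antibody. The sources used here do not give the Cre driver, the deleted exons, or the age and sex of the mice. They also do not say if Ly5.2 cells were sorted away from Ly5.1 cells.

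H3K27me3 is written by Polycomb repressive complex 2 (PRC2), of which Suz12 is a core subunit together with Eed and the methyltransferase Ezh1 or Ezh2. It marks genes that are kept silent, is typically densest at CpG-rich promoters of developmental regulators, and can also form broad, shallow domains over gene bodies and between genes. Very long mammalian genes are mostly adhesion molecules, receptors, channels and scaffolds of neurons and muscle, which are silent in macrophages. A smaller number, such as Dock2 and Elmo1 of the Rac activation pathway, act in blood cells.

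To show the kind of start site such genes have, the promoter is printed below for the 3 largest gains (Arhgap15, Gphn, Adgrl3), the 2 largest losses (Adk, Maml2) and the window with the highest level (Rbfox3). Each sequence has 300 bases, 250 before to 50 after the 5′-most start listed for the gene in the RefSeq promoter table of GRCm38.p6, printed 5′ to 3′ on the strand of the gene with each CG dinucleotide in capitals. They are Arhgap15 on the plus strand at chr2:43748574-43748873, Gphn on the plus strand at chr12:78226405-78226704, Adgrl3 on the plus strand at chr5:81020321-81020620, Adk on the plus strand at chr14:21052324-21052623, Maml2 on the plus strand at chr9:13297708-13298007 and Rbfox3 on the minus strand at chr11:118760992-118761291. The listed starts of Gphn and Rbfox3 lie 9.33 kb and 151 kb inside the gene from its 5′ end, and those of Adgrl3 and Maml2 1.49 kb and 1.40 kb.
Arhgap15: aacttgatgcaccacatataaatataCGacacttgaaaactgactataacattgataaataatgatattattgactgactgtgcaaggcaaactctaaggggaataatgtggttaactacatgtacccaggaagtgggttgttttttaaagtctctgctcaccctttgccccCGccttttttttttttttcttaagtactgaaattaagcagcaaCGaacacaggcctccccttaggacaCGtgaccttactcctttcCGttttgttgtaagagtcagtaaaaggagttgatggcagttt
Gphn: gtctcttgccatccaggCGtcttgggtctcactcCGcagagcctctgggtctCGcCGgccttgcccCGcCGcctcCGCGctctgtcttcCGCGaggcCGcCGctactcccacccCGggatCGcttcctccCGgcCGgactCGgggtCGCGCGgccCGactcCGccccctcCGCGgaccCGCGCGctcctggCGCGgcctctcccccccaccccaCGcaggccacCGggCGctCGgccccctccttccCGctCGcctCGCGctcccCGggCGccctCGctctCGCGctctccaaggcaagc
Adgrl3: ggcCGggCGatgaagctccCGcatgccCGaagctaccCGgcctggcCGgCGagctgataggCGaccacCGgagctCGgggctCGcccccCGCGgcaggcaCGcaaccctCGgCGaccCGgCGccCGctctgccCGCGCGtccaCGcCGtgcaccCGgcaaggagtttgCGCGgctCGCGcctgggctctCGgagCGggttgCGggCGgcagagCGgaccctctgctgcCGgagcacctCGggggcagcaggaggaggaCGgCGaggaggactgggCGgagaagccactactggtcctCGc
Adk: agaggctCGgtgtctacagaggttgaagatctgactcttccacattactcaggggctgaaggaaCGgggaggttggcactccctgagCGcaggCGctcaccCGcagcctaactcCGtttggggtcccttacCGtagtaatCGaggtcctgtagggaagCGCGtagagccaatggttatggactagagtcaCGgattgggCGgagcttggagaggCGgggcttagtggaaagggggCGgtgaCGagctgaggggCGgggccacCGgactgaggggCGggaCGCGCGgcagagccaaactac
Maml2: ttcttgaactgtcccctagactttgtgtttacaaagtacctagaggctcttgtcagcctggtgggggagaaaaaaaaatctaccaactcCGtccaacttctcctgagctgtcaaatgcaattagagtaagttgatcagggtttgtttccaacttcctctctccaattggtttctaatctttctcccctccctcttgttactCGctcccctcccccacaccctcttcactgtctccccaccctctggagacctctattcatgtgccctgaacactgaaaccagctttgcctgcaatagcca
Rbfox3: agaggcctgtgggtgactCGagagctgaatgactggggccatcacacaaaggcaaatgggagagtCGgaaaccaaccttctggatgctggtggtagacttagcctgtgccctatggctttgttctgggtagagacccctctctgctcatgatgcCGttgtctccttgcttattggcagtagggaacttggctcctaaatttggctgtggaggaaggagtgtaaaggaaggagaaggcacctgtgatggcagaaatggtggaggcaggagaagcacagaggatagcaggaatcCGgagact

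Gphn held 42 CG and Adgrl3 40, while Arhgap15 held 5, so the 3 largest gains included both CG-dense and CG-poor starts. Adk held 21 CG, Maml2 2 and Rbfox3 4. Of the 315 genes, 242 had an entry in the promoter table, with a median of 17 CG in the 300 bases. The median was 7 over all 27025 promoters of the table and 12 over the 12259 promoters of genes that passed the count filter. At least 10 CG were found in 71.5% of the long genes' promoters and in 44.0% of all promoters, and at least 1 CG in 98.8% and 94.2%. Within the long genes the median was 17 CG for the gained windows (25 promoters), 21 for the lost windows (13) and 17 for those not called (203). CG pairs with itself, so one strand gives the count for both. The counts reported below cover whole windows and do not resolve these promoters.

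The libraries held 2592297 and 2142175 counts (wild type) and 3331138 and 3567282 counts (cKO) over all windows. Suz12's own window carried 8, 10, 11 and 10 counts, and this amount of mark does not measure the deletion. The windows of 15 alveolar macrophage markers had low median levels of 0.115 to 0.146 counts per 1000000 of the library total (CPM) per kb, with 1 of them at 0. The markers of T cells (0.840 to 1.21), B cells (0.914 to 1.40), lung epithelium (2.38 to 2.75), endothelium (3.64 to 3.83) and fibroblasts (3.10 to 3.25) were higher, and each range covers all 4 libraries. This mark is repressive, so these levels do not measure expression. The X chromosome took 5.27% to 5.50% of the counts and the 109 Y windows 63 to 89 counts.

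Long windows took 12.4% and 13.2% of the wild-type libraries' counts against 12.3% and 12.7% of the cKO libraries' counts. The Wilson 95% intervals, which cover counting error only, were at most 0.1 percentage points wide. The means were 12.8% ± 0.579 (SD, n = 2) and 12.5% ± 0.312 (SD, n = 2), and the groups overlap. With 2 libraries against 2 an exact permutation test cannot pass the 0.05 threshold. The median level of a long window was 0.476 and 0.514 CPM per kb in the wild-type libraries against 0.497 and 0.496 in the cKO libraries. Over all windows that passed the count filter it was 0.647 and 0.692 in wild type against 0.655 and 0.673 in cKO, which is higher in every library. That filter acts on counts, so short windows pass it only at higher levels per kb. By length, the median level over the 4 libraries was 0.498 at 400 kb or more. It was lower at 30 to 100 kb (0.264) and 100 to 200 kb (0.355), and higher at 200 to 400 kb (0.606) and under 30 kb.

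No long window was among the most heavily marked windows by level per kb, which is an average over the whole window. Their mean levels over the 4 libraries ran from 0 to 2.94 CPM per kb with quartiles of 0.247, 0.497 and 0.900. None reached 3.41 CPM per kb, the bound of the top 10% of all tested windows, whose highest value was 121. Their counts had a median of 974 per window and library against 43 over all tested windows. The median standard error of a log2 fold change was 0.09 in long windows and 0.29 over all tested windows.

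The highest level belonged to Rbfox3 (chr11:118489760-118911597), which encodes the neuronal splicing factor NeuN. It stood at 3.23 and 3.17 CPM per kb in wild type against 2.59 and 2.78 in cKO. The groups did not overlap, but the log2 fold change of -0.20 ± 0.08 (SE) did not pass the test (adjusted p = 0.114, edgeR). Prkce (chr17:86167785-86657919), the gene of a calcium-independent protein kinase C, stood at 3.14 and 2.71 in wild type against 2.24 and 2.43 in cKO. It was called lost at -0.27 ± 0.08 (edgeR adjusted p = 0.0153), and leaving out either cKO library ended that call (adjusted p = 0.383 without the first and 0.0508 without the second), as did leaving out wild-type library 1 (adjusted p = 0.389) and DESeq2's Wald test (adjusted p = 0.125). With housekeeping scaling its log2 fold change was 0.03. The next levels were those of Kif26b, a kinesin of tissue morphogenesis (chr1:178529125-178932857, 2.50 ± 0.122 in wild type against 2.51 ± 0.140 in cKO; SD, n = 2), and Grik4, a kainate receptor subunit (chr9:42518182-42945000, 2.55 ± 0.0275 and 2.31 ± 0.0200). Plxna4, a semaphorin receptor (chr6:32144543-32588192), had 2.14 ± 0.0108 and 2.21 ± 0.00264, and Prkca, a conventional protein kinase C (chr11:107933387-108343888), had 2.00 ± 0.255 and 2.14 ± 0.0304. None of these 4 was called, and their edgeR adjusted p values were 0.342 to 0.743.

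**Figure D1:**
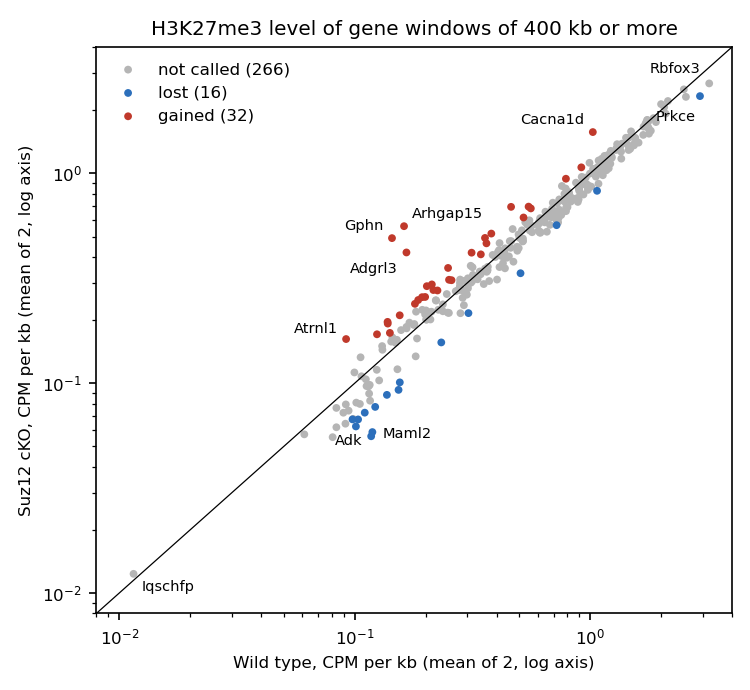
Each point is one of the 314 long windows that passed the count filter, with its mean H3K27me3 level in wild type (x axis) and Suz12 cKO (y axis) in CPM per kb, both on log axes, n = 2 libraries a genotype, and the line marks equal levels. Most windows lie along the line, and Arhgap15, Gphn and Adgrl3 lie farthest above it at wild-type means of 0.144 to 0.166.

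The lowest levels include genes of broad or blood-cell use. Dock2 (chr11:34226815-34783905), a Rac activator of leukocytes, stood at 0.0658 and 0.0564 CPM per kb in wild type against 0.0613 and 0.0528 in cKO, with a log2 fold change of -0.06 ± 0.20 (edgeR adjusted p = 0.927). Its groups overlap, and 20.2% of its window is shared with another window. Tbc1d5 (chr17:50733124-51181199), which acts in endosomal retrieval, had 0.0806 ± 0.0174 in wild type against 0.0553 ± 0.00721 in cKO (SD, n = 2). Cdk14 (chr5:4803384-5380251), a cyclin-dependent kinase, had 0.0836 ± 0.0143 and 0.0617 ± 0.00967. Vps13b (chr15:35371118-35931229), a lipid transfer protein of the Golgi, had 0.0913 ± 0.0144 and 0.0641 ± 0.0234. Dock1 (chr7:134670687-135173647), a Rac activator in engulfment, had 0.0836 ± 0.0271 and 0.0762 ± 0.00812, and 12.3% of its window is shared. None of these was called.

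Overlapping windows limit the level of 2 members, which lie almost wholly in overlaps. Of all 2445 windows that lie wholly within other windows, 67.1% had 0 counts in all 4 libraries, against 1.27% of the 10808 windows that overlap no other. The window of Iqschfp, a read-through gene, shares 99.7% of its length with other windows and held 0.0115 ± 0.00289 CPM per kb in wild type against 0.0123 ± 0.000321 in cKO. Schip1, which lies wholly within it, had 0 counts in all 4 libraries, and a limit of 3 counts allows 0.00204 and 0.00247 CPM per kb in wild type against 0.00159 and 0.00148 in cKO. Schip1 is the 1 member that did not pass the count filter. Of the 315 members 154 share no sequence with another window, 11 share 10% or more, and the median share is 0.0569%. Another 142 windows lie wholly within 111 of the members.

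Of the 5 longest windows 1 was called. Dmd (chrX:82814664-85205050), the muscle dystrophin gene, had 0.972 and 1.08 CPM per kb in wild type against 1.05 and 1.05 in cKO, which overlap. Cntnap2 (chr6:45060061-47301393), a neuronal cell adhesion protein, had 0.583 and 0.636 against 0.521 and 0.526. Its groups did not overlap, at -0.16 ± 0.08 on the log2 scale (edgeR adjusted p = 0.229). Lrp1b (chr2:40595290-42653598), an LDL receptor relative, had 0.311 ± 0.0398 and 0.301 ± 0.00946, and Macrod2 (chr2:140395303-142392966), an ADP-ribose hydrolase, had 0.365 ± 0.0326 and 0.346 ± 0.0245. Csmd1 (chr8:15892538-17535385), a complement-regulatory membrane protein, had 0.239 and 0.276 in wild type against 0.295 and 0.324 in cKO and was called gained at 0.32 ± 0.09 (edgeR adjusted p = 0.00998). That call ended without wild-type library 1 (adjusted p = 0.117), without cKO library 2 (adjusted p = 0.488) and with upper-quartile factors (adjusted p = 0.0741).

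The genotypes were compared by edgeR's quasi-likelihood test fitted over all 16752 windows that passed the count filter, with Benjamini-Hochberg adjustment over all of them. A window with an adjusted p below 0.05 is called gained (higher in cKO) or lost (lower in cKO). Every scaling used here is taken from the libraries' own counts, so gains, losses and folds are relative to other windows of the same libraries. A change of the mark shared by all windows would not be seen, and the total amount of mark was not tested. All adjusted p values below are from this test unless another is named. Among the 314 long windows tested, 32 were gained and 16 lost, which is 10.2% and 5.10%. Over all windows tested, 4.46% were gained and 1.96% lost, and 6.42% were called in either direction against 15.3% of the long windows. Long windows have smaller errors, as stated above, so these shares are not counts at equal precision. The median log2 fold change was 0.01 in long windows and -0.01 over all tested windows. In long windows the central 95% of log2 fold changes ran from -0.55 to 0.56, and over all tested windows from -1.10 to 0.95.

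Gains and losses depended on how libraries were scaled. Scaling to library totals gave 28 gained and 35 lost long windows, with 3.56% and 2.84% of all tested windows gained and lost. Upper-quartile factors gave 23 and 43 (2.95% and 3.10% of all). Scaling to housekeeping genes gave 53 and 2 (12.4% and 0.436% of all) and moved the median log2 fold change of all tested windows by 0.30. Relative to the median of all windows tested, the median of the long windows stood at 0.02 to 0.03 under all of these scalings, which move all windows nearly alike. It was -0.04 among windows of at least 50 counts on average, -0.01 without wild-type library 1, 0.05 without wild-type library 2, 0.09 without cKO library 1 and -0.01 without cKO library 2. Of the 32 gains, 23 were called in the same direction under each of 4 other scalings, and of the 16 losses, 2 (Adk and Maml2).

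Single libraries also mattered. Of the 32 gains, 17 were called without wild-type library 1, 32 without wild-type library 2, 21 without cKO library 1 and 11 without cKO library 2. Of the 16 losses, the same omissions left 12, 7, 11 and 1. Over all windows tested, the shares gained under these omissions were 3.93%, 3.05%, 2.32% and 1.99%, and the shares lost 1.1%, 0.917%, 1.06% and 0.432%. DESeq2's Wald test called 19 of the long windows gained and 4 lost (3.47% and 0.485% of all windows it tested). With only windows of at least 50 counts on average, 32 were gained and 45 lost (7.94% and 5.06% of all tested there). With the replicate number as a block, 32 were gained and 15 lost (4.38% and 1.83% of all). The 10 gains called under all 12 alternatives tried were Arhgap15, Gphn, Adgrl3, Atrnl1, Cacna1d, Lrba, Nrg3, Nav2, Negr1 and Erbb4. Each of the other 22 gains lost its call when at least 1 library was left out, and no loss was called under all 12.

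The changes were mostly small. Of the 48 called long windows, 4 moved more than 2-fold (8.33%), 3 of them gains (Arhgap15, Gphn, Adgrl3) and 1 a loss (Adk). Of all 1076 called windows, 343 did (31.9%), and over all windows tested 1.23% gained and 0.818% lost more than 2-fold. The median gained window went from 0.220 CPM per kb in wild type to 0.3326 in cKO, and the median lost window from 0.145 to 0.0905. Among the gained windows, 29 of 32 had a wild-type mean below 0.676, the wild-type median of all tested windows. Among the lost windows, 11 of 16 lay in the lowest of 4 equal classes of mean level. Of the 314 long windows tested, 55 lay in that lowest class and 142 in the second, which ends at 0.674. The wild-type values also enter the calls, so these positions are not independent of them. In all 48 the cKO libraries lay on one side of both wild-type libraries. The calls were made on these same libraries, so this separation adds no support to them. Some windows that were not called, such as Rbfox3 and Cntnap2, were also apart, and the share apart over all tested windows was not taken.

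Arhgap15 (chr2:43748798-44395953) gained the most. It encodes a GTPase-activating protein that switches off Rac in blood cells. Its window held 0.150 and 0.174 CPM per kb in wild type against 0.560 in each cKO library. Both cKO values lay far above both wild-type values. The log2 fold change was 1.85 ± 0.11 (SE), a 3.60-fold gain (adjusted p = 1.18e-42).

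Gphn (chr12:78217325-78684772) encodes gephyrin, which anchors inhibitory receptors at synapses and makes the molybdenum cofactor in most cells. Its window held 0.147 and 0.141 in wild type against 0.489 and 0.493 in cKO, again well apart. It gained 1.82 ± 0.12 on the log2 scale (adjusted p = 2.92e-35). Adgrl3 (chr5:81019085-81827825) encodes latrophilin 3, a synaptic adhesion receptor. It held 0.162 and 0.170 in wild type against 0.442 and 0.398 in cKO, a log2 gain of 1.39 ± 0.10 (adjusted p = 9.34e-29). Adgrl3 shares no sequence with another window, Arhgap15 shares 1.85% and Gphn 0.581%. These 3 windows started from similar wild-type levels, below the wild-type median of long windows in both libraries.

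The other large gains were below 2-fold. Atrnl1 (chr19:57610960-58133343), an attractin-like membrane protein, went from 0.0840 and 0.0998 to 0.167 and 0.158 (0.88 ± 0.15, adjusted p = 6.01e-07). Cacna1d (chr14:30039941-30491156), an L-type calcium channel subunit, went from 1.01 and 1.04 to 1.56 and 1.59 (0.67 ± 0.09, adjusted p = 2.56e-11). It started above the wild-type median of all tested windows, unlike the other 9 of the 10 largest gains. Lrba (chr3:86223456-86782694), which keeps CTLA4 from degradation in lymphocytes, went from 0.455 and 0.468 to 0.689 and 0.696 (0.64 ± 0.09, adjusted p = 1.05e-08). Nrg3 (chr14:38365102-39473235), a neuregulin ligand of ErbB4, went from 0.183 and 0.222 to 0.299 and 0.281 (0.58 ± 0.10, adjusted p = 1.21e-06). Its receptor gene Erbb4 (chr1:68031884-69108576) went from 0.292 and 0.335 to 0.413 and 0.424 (0.47 ± 0.09, adjusted p = 3.08e-05). Ligand and receptor were both called gained, and in neither did the genotypes overlap.

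The last 3 of the 10 largest gains each lost the call when 1 library was left out. Unc5d (chr8:28646717-29219671), a netrin receptor, went from 0.239 and 0.260 to 0.335 and 0.373 (0.56 ± 0.11, adjusted p = 2.49e-05). Ppfia2 (chr10:106469500-106933468), liprin-alpha 2 of the presynaptic active zone, went from 0.141 and 0.134 to 0.190 and 0.202 (0.56 ± 0.14, adjusted p = 0.00222). Luzp2 (chr7:54835245-55268888), a leucine zipper protein, had 0.105 and 0.171 in wild type, a wide spread, and 0.186 and 0.198 in cKO (0.55 ± 0.14, adjusted p = 0.00458). Without cKO library 2 the adjusted p values of Unc5d, Ppfia2 and Luzp2 were 0.0865, 0.169 and 0.201, and without wild-type library 1 that of Luzp2 was 0.491. With DESeq2's Wald test those of Ppfia2 and Luzp2 were 0.0708 and 0.202.

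**Figure D2:**
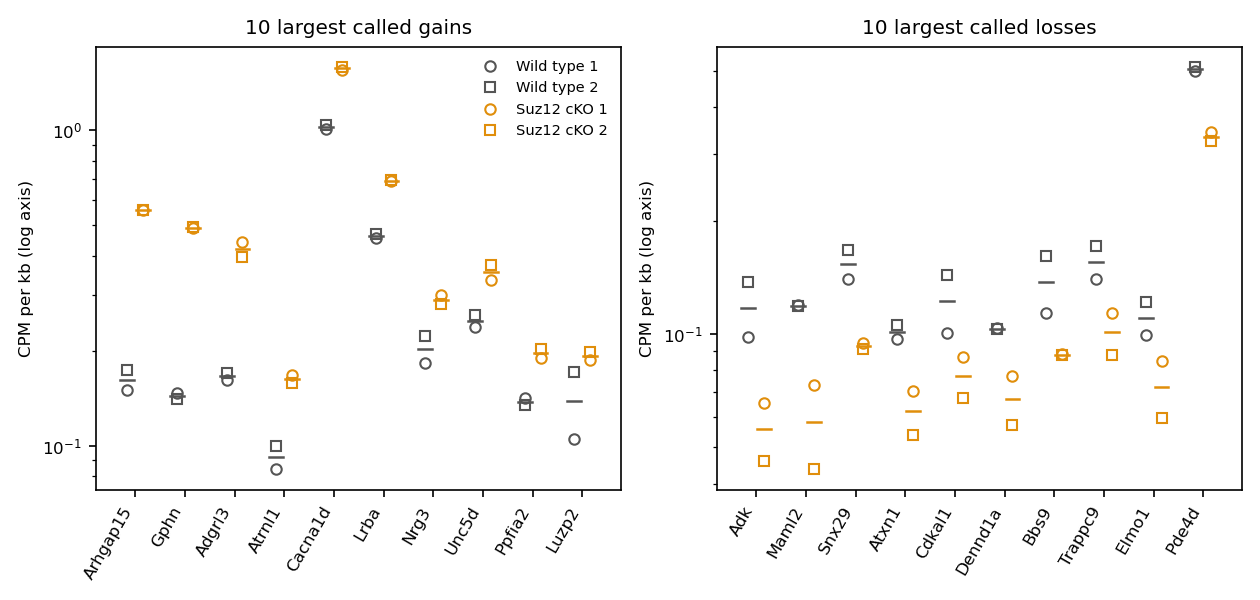
Level of the 10 largest called gains (left) and the 10 largest called losses (right) in each library, in CPM per kb on a log axis, with the short bar at the mean of 2 libraries. In the left panel both cKO libraries (orange) lie above both wild-type libraries (grey), and the opposite holds in the right panel, where most values lie between 0.0436 and 0.171.

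Adk (chr14:21052574-21448569) encodes adenosine kinase, which clears adenosine. Its window held 0.0979 and 0.137 CPM per kb in wild type against 0.0657 and 0.0460 in cKO. Its log2 fold change was -1.01 ± 0.20 (adjusted p = 4.59e-05). Maml2 (chr9:13296561-13709533) encodes a Notch coactivator. It held 0.119 and 0.118 in wild type against 0.0733 and 0.0436 in cKO (-0.98 ± 0.19, adjusted p = 4.73e-05). Both had low levels and differing cKO libraries, and neither was called without cKO library 2 (adjusted p = 0.0537 and 0.134).

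Pde4d (chr13:108654177-109955969), a phosphodiesterase that breaks down cyclic AMP, was the loss with the smallest p. It went from 0.501 and 0.511 in wild type to 0.343 and 0.325 in cKO (-0.55 ± 0.09, adjusted p = 1.25e-07). The groups are clearly apart, and the call held when each library was left out. It did not hold when the libraries were scaled to housekeeping genes (-0.24, adjusted p = 0.395).

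The other 7 of the 10 largest losses all lay in the lowest of the 4 level classes. Snx29 (chr16:11322861-11759095), a sorting nexin, went from 0.140 and 0.167 to 0.0945 and 0.0914 (-0.66 ± 0.16, adjusted p = 0.00149). Atxn1 (chr13:45549755-45964991), a transcriptional corepressor, went from 0.101 ± 0.00580 to 0.0622 ± 0.0118 (-0.65 ± 0.20), and Cdkal1 (chr13:29191746-29855683), a tRNA-modifying enzyme, from 0.122 ± 0.0304 to 0.0771 ± 0.0137 (-0.60 ± 0.16). Dennd1a (chr2:37798990-38287410), a Rab35 activator, fell from 0.103 ± 0.000605 to 0.0672 ± 0.0140 (-0.57 ± 0.18), and Bbs9 (chr9:22475559-22888283), a subunit of the ciliary BBSome, from 0.137 ± 0.0334 to 0.0880 ± 0.000341 (-0.57 ± 0.17). Trappc9 (chr15:72589620-73061238), a vesicle-tethering subunit, fell from 0.155 ± 0.0221 to 0.101 ± 0.0182 (-0.57 ± 0.15). Elmo1 (chr13:20090507-20608353), the partner of Dock proteins in engulfment, fell from 0.110 ± 0.0154 to 0.0724 ± 0.0176 (-0.55 ± 0.17). The adjusted p values of these last 6 were 0.00643 to 0.0260. None of the 7 was called without wild-type library 2, without cKO library 2, with DESeq2's Wald test or with housekeeping scaling.

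Long genes were next grouped by role, with 12 lists that hold 221 of the 315, some in more than 1 list. Each count of long genes is to be read against the 10.2% gained and 5.10% lost among all long windows tested, which have smaller errors. Over all windows tested the shares were 4.46% and 1.96%. Of 32 long genes of synaptic and neuronal adhesion, 5 rose and none fell (median log2 fold change 0.11). Besides Adgrl3 and Nrg3 these were Negr1, an IgLON adhesion protein that went from 0.380 ± 0.0307 CPM per kb to 0.516 ± 0.0204 (SD, n = 2; log2 fold change 0.50 ± 0.09, adjusted p = 1.79e-05), Opcml, another IgLON protein (0.30 ± 0.09, adjusted p = 0.0136), and Adgrb3, an adhesion receptor of excitatory synapses (0.47 ± 0.11, adjusted p = 0.00132). Of the 33 listed adhesion genes with shorter windows, 2 rose and 1 fell (median 0.03). The long genes' counts were 5 gained and 2 lost with library totals, 4 and 2 with upper-quartile factors and 9 and 0 with housekeeping scaling. Relative to all windows tested, their median stood at 0.12 to 0.13 under these scalings.

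Of 12 long cadherin, protocadherin and catenin genes, 1 rose (median 0.13). It was Pcdh9 (chr14:93013700-93892834), a protocadherin, at 0.141 and 0.170 in wild type against 0.208 and 0.214 in cKO (0.50 ± 0.11, adjusted p = 0.000438; 0.103 without cKO library 2). Of the 8 axon guidance genes only Unc5d rose (median 0.09). Of 14 neurotransmitter receptor genes, Gabrg3, a GABA-A receptor subunit, and Grm7, a metabotropic glutamate receptor, rose (median 0.04). Gabrg3 (chr7:56716463-57387215) held 0.189 and 0.242 in wild type against 0.271 and 0.285 in cKO (0.43 ± 0.11, adjusted p = 0.00433). Its adjusted p was 0.0535 without cKO library 1, 0.265 without cKO library 2, 0.205 without wild-type library 1 and 0.0728 with DESeq2's Wald test.

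Of 19 long ion channel and channel partner genes, Cacna1d and Tmem132d rose, while the median of the list was -0.07. With library totals 2 were gained and 3 lost, with upper-quartile factors 2 and 4, and with housekeeping scaling 3 and 0, so the absence of losses depended on the scaling. Of 8 receptor tyrosine kinase and phosphatase genes, Erbb4 and the adhesion phosphatases Ptprd (0.46 ± 0.11) and Ptprt (0.36 ± 0.09) rose (median 0.01). The 25 genes of matrix and muscle structure had a median of 0.08, and Galnt13 had the lowest p among them. Galnt13 (chr2:54436211-55118309), which starts O-linked sugar chains and is not a structural protein, rose from 0.109 and 0.139 in wild type to 0.165 and 0.177 in cKO (0.52 ± 0.13, adjusted p = 0.00174). Its call ended without wild-type library 1 (adjusted p = 0.121), without cKO library 2 (adjusted p = 0.199) and with DESeq2's Wald test (adjusted p = 0.0683). Of 6 LDL-receptor-like and Csmd genes Csmd1 rose (median 0.04).

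Of 40 long genes of scaffolds, kinases and phosphodiesterases, 3 rose (Arhgap15, Sntg1, Syt1) and 3 fell (Pde4d, Elmo1, Prkce), with a median of 0.00, against 3 and 5 with library totals, 2 and 6 with upper-quartile factors and 4 and 0 with housekeeping scaling. Of 23 long genes of transcription and RNA regulation, 1 rose and 2 fell, and the median was -0.12. The gain there was Nav2, a neuron navigator that binds microtubules and is no transcription factor (0.53 ± 0.11, adjusted p = 0.000126). The losses were Maml2 and Foxp1, a forkhead repressor that went from 0.233 ± 0.00298 to 0.156 ± 0.0322 (-0.53 ± 0.13, adjusted p = 0.00154). With library totals 7 were lost, with upper-quartile factors 10 and with housekeeping scaling 1, each beside 1 gain. Relative to all windows tested, the list's median was -0.11 under each of these scalings. It also had the highest median level, 0.725 CPM per kb. The 87 shorter genes of this list had 12 gains and 4 losses (median 0.01).

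Of 34 long genes on the list named broadly expressed, 4 rose (Gphn, Lrba, Atrnl1 and Ppfia2) and 7 fell. The 7 were Atxn1, Cdkal1, Bbs9, Trappc9, Foxp1, Exoc4 and Nbea. Membership was not checked against expression data, and some listed genes, Ppfia2 among them, act mainly in neurons. The list's median log2 fold change was -0.07 and its median level, 0.228 CPM per kb, was the lowest of the 12 lists. The counts were 4 gained and 9 lost with library totals and with upper-quartile factors, and 6 and 0 with housekeeping scaling. Of 12 long genes of blood and myeloid cells, 2 rose (Arhgap15, Lrba) and 2 fell (Elmo1, Foxp1), with a median of -0.12, against 2 and 3 with library totals, 2 and 4 with upper-quartile factors and 3 and 0 with housekeeping scaling. Dock2, on the same list, did not pass the test. The 50 shorter listed blood and myeloid genes had 6 gains and 2 losses (median -0.19). Of the 93 tested long genes on no list, 7 rose and 5 fell.

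**Figure D3:**
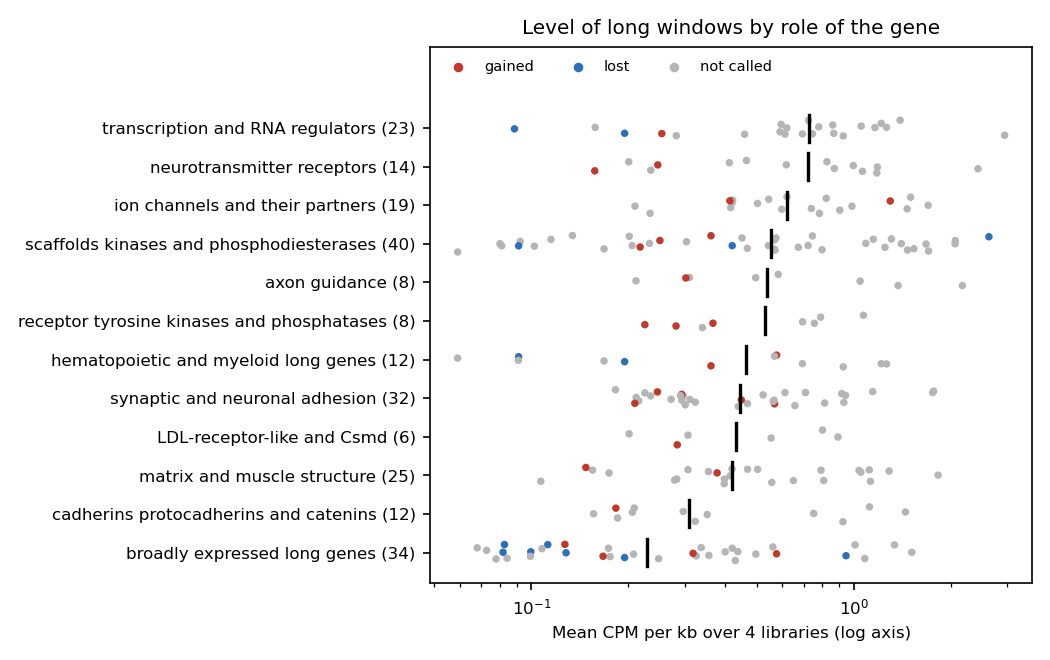
Mean H3K27me3 level of each tested long window over the 4 libraries (x axis, CPM per kb, log axis) that is on a role list, by that list (y axis, number of genes in brackets), coloured by its call, with a black bar at the list's median. The list named broadly expressed has the lowest median, 0.228, and that of transcription and RNA regulators the highest, 0.725.

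The shares called were then laid out by length class. The share gained rose with each class, from 2.07% of 2420 windows under 10 kb, 3.43% of those of 10 to 30 kb and 4.76% of those of 30 to 100 kb to 7.89% at 100 to 200 kb, 9.92% at 200 to 400 kb and 10.2% at 400 kb or more. The share lost was 0.744%, 1.01%, 2.15%, 4.41%, 6.77% and 5.10% in the same order, so windows of 400 kb or more had fewer losses for their number than the class below. The share beyond 2-fold, whether called or not, was 5.00%, 5.66%, 6.86%, 3.48%, 2.52% and 1.27%. The median log2 fold change was -0.05 at 200 to 400 kb and 0.01 at 400 kb or more. Median levels were 0.264 CPM per kb at 30 to 100 kb, 0.606 at 200 to 400 kb and 0.498 at 400 kb or more. The median window held 23 counts per library under 10 kb and 974 at 400 kb or more, with median SEs of 0.40 and 0.09. The shares called are therefore not at equal precision, and the differences between classes were not tested.

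**Figure D4:**
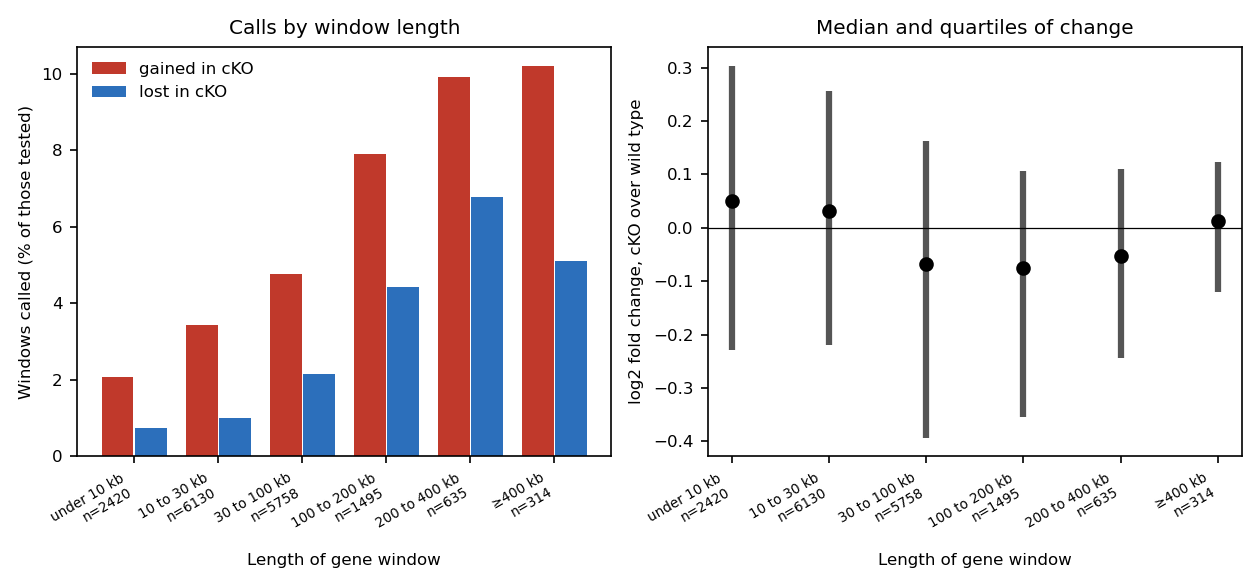
Left, share of tested windows called gained or lost in Suz12 cKO (y axis, percent) by window length (x axis, n under each class); right, median log2 fold change (point) and quartiles (bar) of the same classes. Both shares are higher in classes above 100 kb than below, and the quartiles are closest together at 400 kb or more, at -0.12 and 0.12. The classes are not at equal precision, with a median SE of 0.40 under 10 kb and 0.09 at 400 kb or more.

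The windows nearest the length limit are given as a description. Cdh23 (399741 bp) had mean levels of 1.88 CPM per kb in wild type against 1.80 in cKO, Zmat4 (399445 bp) 0.649 and 0.454, and Trdn (399227 bp) 0.157 and 0.188. Just above it Grik1 (400362 bp) had 0.420 and 0.403, Myt1l (400826 bp) 1.78 and 1.54, and Cpa6 (401217 bp) 0.685 and 0.618.

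Losses were more frequent at low levels. All tested windows were divided into 4 classes of equal size by mean level over the 4 libraries, at 0.200, 0.674 and 1.59 CPM per kb. In the lowest class 6 of 55 long windows gained and 11 lost, with a median log2 fold change of -0.14. In that class the 4133 shorter windows had 0.605% gained and 2.83% lost, with a median of -0.33. Their median SE was 0.47 against 0.15 in the long windows, so these shares are not at equal precision. In the second class 23 of 142 long windows gained and 3 lost (median 0.04), while 4.597% of the shorter windows gained and 1.83% lost. In the third class 3 of 97 long windows gained and 1 lost, while 5.33% of the 4091 shorter windows gained and 1.86% lost. The shorter windows of the third class had a median SE of 0.246 against 0.0862 in the long ones. In the highest class, 20 long windows had no gain and 1 loss, Prkce, while 6.86% of the 4168 shorter windows gained and 1.104% lost. The classes use the same libraries as the calls, so a window that changed also moved its own mean level.

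The low windows also differed between libraries of 1 genotype. In the lowest class the median long window stood at 0.109 and 0.132 CPM per kb in wild type against 0.108 and 0.0959 in cKO, so wild-type library 1 and cKO library 1 were nearly equal and the lowest value was that of cKO library 2. The part of these library differences in the losses was not tested beyond leaving out each library in turn, as given above.

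**Figure D5:**
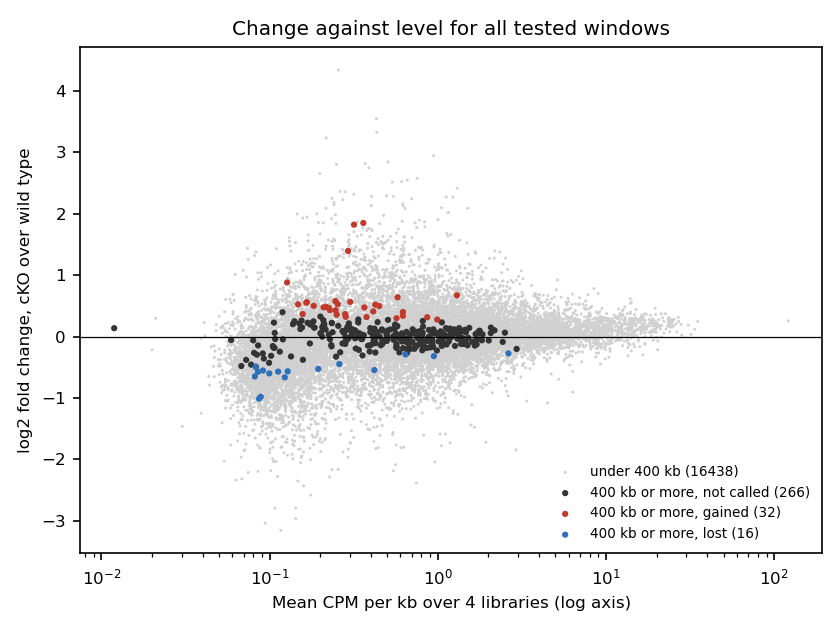
Log2 fold change of each tested long window (y axis, cKO over wild type) against its mean level over the 4 libraries (x axis, CPM per kb, log axis), coloured by call, with the 16438 shorter tested windows in light grey. Losses gather at the low end, where 11 of 16 lie at or below 0.200, and 23 of 32 gains lie between there and 0.674. These 2 ranges hold 55 and 142 of the 314 long windows.

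Of the 13 X-linked long windows, Aff2 (chrX:69360190-69872054), a transcription elongation factor of neurons, rose from 0.917 ± 0.0698 to 1.07 ± 0.0269 (0.28 ± 0.09, adjusted p = 0.0331) and none fell. That call ended when either cKO library or wild-type library 1 was left out, and also with library totals, upper-quartile factors and DESeq2's Wald test, with adjusted p values up to 0.480. Of the 299 autosomal long windows 10.4% were gained and 5.35% lost. Of all 946 tested X windows, 933 of them shorter, 1.27% were gained and 1.90% lost. The median log2 fold change of the 13 was 0.08, and that of the 299 autosomal long windows 0.01. The median level of the X-linked long windows was 0.606 and 0.655 in wild type against 0.587 and 0.621 in cKO, which overlap.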

How the data were processed

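H3K27me3 Cut&Tag was compared between 2 wild-type and 2 Suz12 cKO libraries, grouped by their sample titles. The authors deposited whole-number counts per gene window and the window lengths; per the submitters' processing notes, featureCounts and mm10 were used. Aligner, duplicate handling and counting options: not given in the sources used here. Levels are counts per 1000000 of the column total (CPM) per kb of deposited length. The lengths equal the GRCm38.p6 gene span plus 6000 bp for 55 of the 315 windows and differ from it by over 10% for 29. Coordinates are those genes' reference positions (mm10 coordinates), and overlaps were taken from them with 3 kb on each side, so they are approximate.

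Changes were tested with edgeR 4.0.16 under R 4.3.3 (filterByExpr, TMM, glmQLFit, glmQLFTest, genotype only), and SE is the log2 fold change over the square root of F. The test was also run on simulated counts that gave all windows the same dispersion, which does not measure the error of the calls reported here. DESeq2 1.42.0, other scalings, filters, length limits and omitted libraries were alternatives, and housekeeping scaling was added after seeing the data. Genes named are the 6 highest and 6 lowest levels, the 10 largest called gains and losses, the 5 longest, those nearest the length limit and the lowest p of each list; others named (Schip1, Aff2 and further called list members) were chosen after their values were seen. The members and lists were chosen with earlier results of these data known.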

Additional observations from a re-analysis of the deposited data

How the results depend on the processing

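Leaving out each library in turn gave 11 to 42 gained long windows, 1 to 18 lost ones and a median log2 fold change of -0.03 to 0.07; the lowest counts, 11 and 1, came without cKO library 2, the 42 without wild-type library 2, and 18 gains were left without wild-type library 1 and 21 without cKO library 1. With TMM 32 long windows were gained and 16 lost. All long windows called lost numbered 35 with library totals, 43 with upper-quartile factors and 2 with housekeeping scaling (added after seeing the data). They numbered 45 among windows with a mean of at least 50 counts and 4 with DESeq2's Wald test. Gains numbered 53 with housekeeping scaling and 19 with DESeq2's Wald test. Other length limits change the number of windows, so shares are given. At 300 kb or more, 52 of 526 tested windows were gained (9.89%) and 31 lost (5.89%). At 500 kb or more, 23 of 192 were gained (12.0%) and 6 lost (3.1%). At 400 kb or more the shares were 10.2% and 5.10% of 314. The median log2 fold change was -0.073 with upper-quartile factors and 0.32 with housekeeping scaling, and the median level was 0.513 CPM per kb over unshared length. Prkce turned to 0.034 with housekeeping scaling (adjusted p = 0.929, edgeR). Gains made up 66.7% of the called long windows with TMM, 44.4% with library totals, 34.8% with upper-quartile factors and 96.4% with housekeeping scaling. The labels do not say that replicate numbers pair the libraries, and the differences between numbers 1 and 2 had a correlation across windows of 0.00844 between the genotypes; with the replicate number as a block, 32 were gained and 15 lost with a median of 0.01, and the block ended no call among the 26 called genes named by the rule. The causes were not tested. Windows in the lowest level class held a median of 168 counts per library and a median SE of 0.15 when long, against 0.08 in the highest class.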
